A study of Mus musculus with 18 samples.

Results

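The effect of rapamycin on antigen-targeted germinal centre B cells was measured in 8 of the 18 libraries of the series. They are the 4 libraries of rapamycin-treated DECP cells and the 4 libraries of untreated DECP cells in the table of values for 24 h, chosen by the names of their columns. A further 4 libraries of DECN cells from the same time point are given beside them. All cells carried the B1-8hi immunoglobulin heavy chain, which binds the hapten NP, and their messenger RNA was sequenced in bulk after they were sorted as light zone B cells (B220+ CD38- CD95+ CD83hi CXCR4lo) from the popliteal lymph node of C57BL/6 mice. Hosts had been primed with ovalbumin (OVA) in alum. They received, 2 weeks later, a mixture of transferred B cells. In it DECP cells (Ly75+/+, CD45.1+ CD45.2-) made up 15%, and the other 85% were DECN cells (Ly75-/-, CD45.1+ CD45.2+). NP-OVA was then injected into the footpads, anti-DEC205-OVA was given 6 days later, and cells were collected 24 h after that. Rapamycin-treated DECP came from animals given 2.5 mg/kg rapamycin together with anti-DEC205-OVA, untreated DECP from animals with anti-DEC205-OVA alone, and DECN from animals with anti-DEC205-OVA alone. Ly75 encodes DEC205, so the antibody could deliver OVA to DECP and not to DECN. The drug was given to the whole animal, the labels name no vehicle, and rapamycin-treated DECN were not analysed here.

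Rapamycin binds the small protein FKBP12, and the complex inhibits mTORC1, the kinase complex that joins growth factor and amino acid signals to protein synthesis, ribosome production, nucleotide and sterol synthesis and mitochondrial function. mTORC1 acts mainly by phosphorylation, on the S6 kinases and the 4E-BP translational repressors, and through transcription factors such as ATF4, SREBP1, SREBP2, MYC and TFEB. In the germinal centre, B cells in the light zone present antigen on MHC class II to follicular helper T cells. Cells that receive help grow, move to the dark zone and divide. Anti-DEC205-OVA loads OVA peptide onto DECP cells and so gives them strong T cell help.

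Read depth is unknown, because the values are TPM, a scaled share of all transcripts in a library. At a TPM of at least 1, between 11643 and 12244 genes were detected in rapamycin-treated DECP libraries, between 11128 and 12020 in untreated DECP and between 11562 and 12033 in DECN. Ly75 averaged 12.6 ± 4.65 TPM in rapamycin-treated DECP, 14.1 ± 3.28 TPM in untreated DECP and 5.01 ± 1.67 TPM in DECN (SD, n = 4 each), and every DECP library of both kinds was above every DECN library. The ratio of rapamycin-treated to untreated DECP was 0.898 (exact permutation test, two-sided p = 0.6), that of rapamycin-treated DECP to DECN was 2.52 (exact p = 0.02857) and that of untreated DECP to DECN was 2.8 (exact p = 0.02857, the smallest that 4 against 4 allows). The summed germinal centre markers were at 3480 to 4220 TPM in rapamycin-treated DECP, 2570 to 3260 TPM in untreated DECP and 4000 to 5010 TPM in DECN. The neutrophil markers S100a8 and S100a9 were listed at 0 in all 12 libraries, and of the macrophage and dendritic cell markers C1qa, C1qb and C1qc were listed at 0 in all 8 DECP libraries. Lyz2, another macrophage and dendritic cell marker, had 8.88, 0, 10.2 and 0.0143 TPM in rapamycin-treated DECP, against 0.389 TPM or less in untreated DECP. The whole set of those markers apart from Apoe summed to 8.16 to 24.6 TPM in rapamycin-treated DECP, 4.33 to 9.4 TPM in untreated DECP and 5.01 to 16.2 TPM in DECN, and with Apoe to 618 to 1190 TPM, 410 to 621 TPM and 1030 to 1130 TPM in those groups. The T cell markers summed to 36.2 to 49.8 TPM in rapamycin-treated DECP, against 37.9 to 75.3 TPM in untreated DECP, and most of that was Cd3d, with Cd3e at 1.01 TPM or less in these 8 libraries. Among the DECP libraries, replicate 1 of the untreated group had the fewest genes detected, and replicate 2 of the rapamycin-treated group was the lowest of its group in the summed germinal centre markers, at 3480 TPM.

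With rapamycin, called genes of the growth machinery were mostly lower, and those of antigen presentation and of the ribosome itself were mostly higher. Of 12783 genes tested with limma on log2(TPM + 1), 279 differed at an adjusted p under 0.05 (2.18% of those tested). There were 84 genes higher with rapamycin (0.657%) and 195 lower (1.53%), and 1776 genes had an unadjusted p under 0.05. The genes called lower in rapamycin-treated DECP included 15 of 36 proteasome subunits, 24 of 76 respiratory chain and ATP synthase genes, 12 of 27 chaperones, 5 of 25 sterol synthesis genes and 6 of 52 mitotic genes. Those called higher included 16 of 79 ribosomal protein genes, 7 of 17 MHC class II genes and 3 each of 21 light zone and 28 B cell receptor genes. Among the called genes, 26 were at least 2-fold higher and 30 at least 2-fold lower on that scale, so most differences were smaller than 2-fold. In 275 of the 279 the 4 rapamycin-treated libraries lay wholly above or below the 4 untreated libraries. Over all tested genes the groups were apart in that way for 464 genes higher (3.63%) and 681 lower (5.33%) with rapamycin.

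These counts rest on small differences and on the model of the spread. The labels do not say that the libraries come from separate animals, so p-values measure only the spread between these libraries, and in bulk cells a smaller share of one kind of cell and less RNA per cell cannot be told apart. With a spread that does not depend on the level of a gene (limma without an intensity trend) 0 genes were called and 1656 had an unadjusted p under 0.05, and with only the 8 DECP libraries in the fit 140 were called. Leaving out 1 library gave 109, 211, 158 and 107 calls without replicate 1, 2, 3 or 4 of rapamycin-treated DECP. It gave 126, 184, 118 and 197 calls without replicate 1, 2, 3 or 4 of untreated DECP. Of 278 distinct symbols called, 75 were called in all 8 fits that left out 1 library. The second index sequence in the column names splits each DECP group into 2 and 2 libraries. Within one index limma called 0 genes, with 955 at an unadjusted p under 0.05, and within the other 2, and 266 were called with the index as a term.

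**Figure D1:**
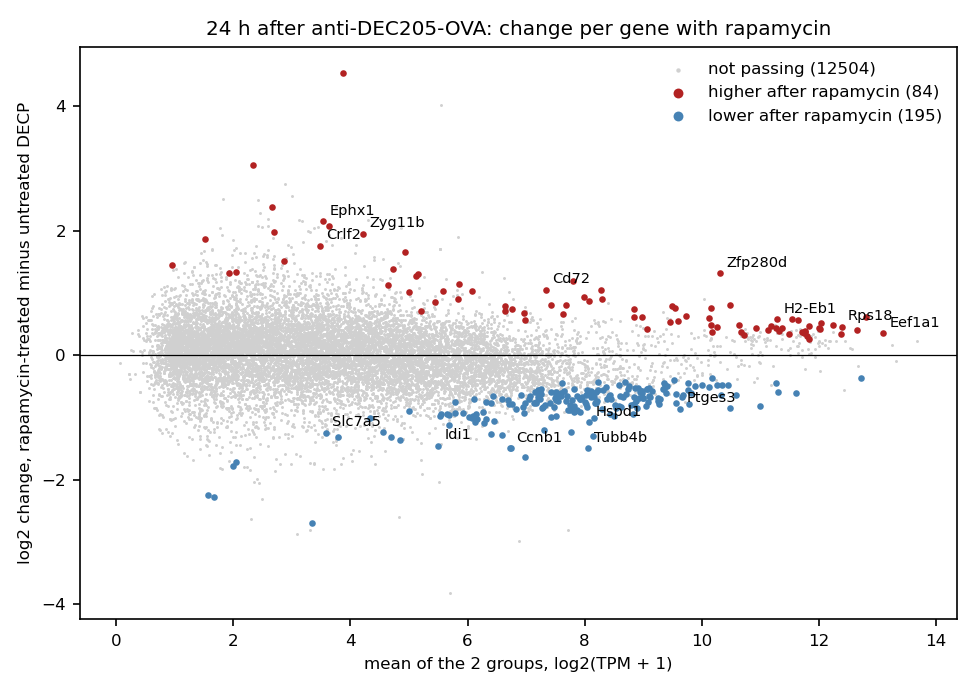
Each point is 1 of 12783 genes, with the mean of both DECP groups on the horizontal axis as log2(TPM + 1) and the log2 change, rapamycin-treated minus untreated DECP, on the vertical axis. The 84 genes called higher are red and the 195 called lower are blue. Most called genes above a TPM of about 100 changed by less than 1 on the log2 scale.

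The lists of pathway genes moved in different directions. Over all 12783 genes the median log2 change was 0.02, with 6644 genes at a positive and 6139 at a negative change. The median was -0.70 for sterol synthesis, -0.67 for chaperonin and heat shock proteins, -0.59 for the proteasome, -0.56 for mitochondrial protein import and for G2/M and mitosis, -0.45 for oxidative phosphorylation and -0.43 for ribosome biogenesis factors. It was 0.27 for cytosolic ribosomal proteins, 0.46 for MHC class II presentation and 0.52 for light zone genes. These medians kept their sign under every scaling tried, except that ribosomal protein genes have no value once they are taken out of the scaling. The number of members called moved with the scaling. With quantile scaling, for example, 2 proteasome genes and 5 genes of oxidative phosphorylation were called lower, against 15 and 24 without it.

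**Figure D2:**
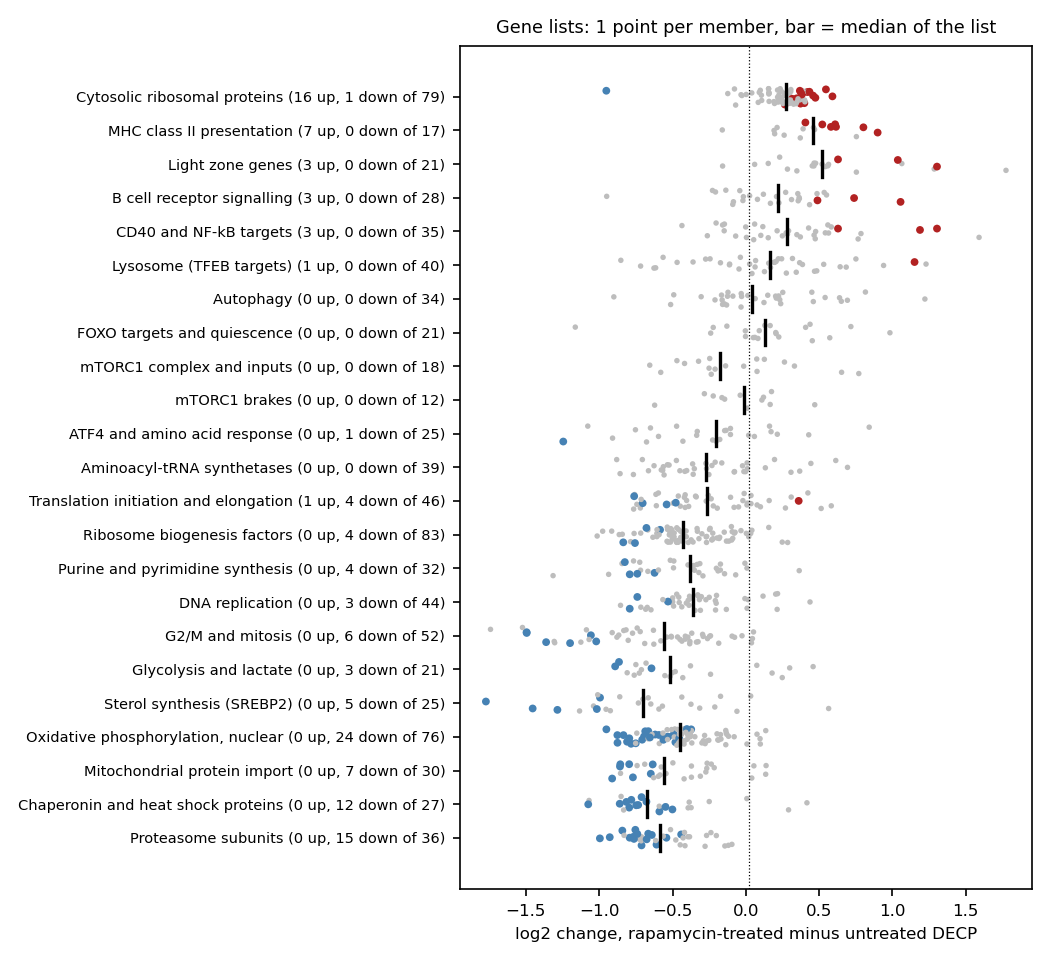
Points are the tested members of 23 gene lists, placed by their log2 change, rapamycin-treated minus untreated DECP. Red and blue points passed an adjusted p of 0.05, grey points did not, bars are medians and the dotted line is the median of all genes. The lists from translation factors down lie mostly to the left of the dotted line, and the upper 5 lie mostly to its right.

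Many proteasome genes were lower with rapamycin. All 36 tested subunits had a negative log2 change, of -0.09 or lower, and 15 of 36 passed the test as lower, where 1.53% of all genes did. Psma6, an alpha-ring subunit of the catalytic core, had 266, 299.9, 242 and 255 TPM in rapamycin-treated DECP, against 522, 420.5, 497 and 469 TPM in untreated DECP (-0.84 ± 0.13 log2, SE, adjusted p = 0.00874). Psmb2, a beta-ring subunit, had 276, 254, 239.7 and 293 TPM in rapamycin-treated DECP, against 459.7, 404, 592 and 404 TPM in untreated DECP (-0.79 ± 0.13 log2, adjusted p = 0.00926). Psmd7, a lid subunit of the regulatory particle, had 116, 103, 96.9 and 109 TPM in rapamycin-treated DECP, against 219, 175, 169 and 159 TPM in untreated DECP (-0.75 ± 0.14 log2, adjusted p = 0.0173). In all 3 genes every rapamycin-treated library was below every untreated library. DECN libraries held 224 to 344 TPM of Psma6 and 81.2 to 103 TPM of Psmd7, ranges that overlap those of rapamycin-treated DECP. Together the proteasome genes made up 0.943% to 0.992% of TPM in rapamycin-treated DECP, 1.28% to 1.48% in untreated DECP and 0.965% to 1.06% in DECN. Of the 15 calls, 5 held in all 8 fits that left out 1 library, these 3 genes among them, and 6 held after TPM was rescaled without ribosomal protein genes.

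Some chaperone genes were lower too. Of 27 tested genes for the cytosolic chaperonin, heat shock proteins and their partners, 12 were called lower and none higher. Ptges3, which encodes the HSP90 co-chaperone p23, had 617, 630, 495 and 508 TPM in rapamycin-treated DECP, against 1065, 1169, 825 and 1035 TPM in untreated DECP (-0.86 ± 0.12 log2, adjusted p = 0.00407). Hspd1, the mitochondrial chaperonin HSP60, had 176, 218, 124 and 176 TPM in rapamycin-treated DECP, against 459, 350.2, 352 and 296 TPM in untreated DECP (-1.07 ± 0.19 log2, adjusted p = 0.0137). Hsp90aa1, the inducible HSP90, had 485, 364, 380.2 and 386 TPM in rapamycin-treated DECP, against 837, 607, 703 and 579.7 TPM in untreated DECP (-0.75 ± 0.14 log2, adjusted p = 0.0173). The groups did not overlap in any of the 3 genes. The other 9 lower members were Ahsa1, Cct4, Cct6a, Dnaja1, Dnaja2, Hspa4, Hspa8, Hspa9 and Tcp1, with log2 changes between -0.81 and -0.50. Ptges3, Hspd1 and Dnaja1 were called in all 8 fits that left out 1 library. None of 31 genes for folding in the endoplasmic reticulum and the unfolded protein response passed, and their median change was -0.20.

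Part of the mitochondrial genes encoded in the nucleus were lower. Of 76 tested genes for the respiratory chain and ATP synthase, 24 were called lower and none higher, and 71 of 76 changes were negative. Ndufab1, the acyl carrier protein of complex I, had 294, 265, 284 and 275 TPM in rapamycin-treated DECP, against 458, 503, 501 and 503 TPM in untreated DECP (-0.81 ± 0.09 log2, adjusted p = 0.0021). Uqcrb, a subunit of complex III, had 204, 262, 230.1 and 248 TPM in rapamycin-treated DECP, against 511, 492, 384 and 442 TPM in untreated DECP (-0.95 ± 0.12 log2, adjusted p = 0.00244). Atp5g3, which encodes the ATP synthase c subunit, had 613, 554, 669.5 and 754 TPM in rapamycin-treated DECP, against 1213, 1049, 1208 and 979 TPM in untreated DECP (-0.78 ± 0.11 log2, adjusted p = 0.00407). Each of these 3 genes had groups that did not overlap and was called in all 8 fits that left out 1 library. Of the 24 calls, 6 held in all 8 such fits, and 7 held after TPM was rescaled without ribosomal protein genes. The list held 2.04% to 2.22% of TPM in rapamycin-treated DECP, 2.69% to 3.12% in untreated DECP and 2.18% to 2.48% in DECN. Of 30 mitochondrial import genes 7 were lower, among them the outer membrane translocase genes Tomm5, Tomm22 and Tomm40. None of the 7 was called in all 8 fits that left out 1 library. After TPM was rescaled without ribosomal protein genes, or with quantile scaling, none of them was called. Tomm5 had 183, 162, 143 and 177 TPM in rapamycin-treated DECP, against 368, 278, 334 and 279 TPM in untreated DECP (-0.91 ± 0.18 log2, adjusted p = 0.021). Of 78 mitochondrial ribosomal protein genes 3 were lower, Mrpl15, Mrpl20 and Mrps25. None of the 13 transcripts encoded in the mitochondrial genome passed, with a median change of -0.14.

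Some sterol synthesis genes were lower with rapamycin. Of 25 tested genes, which lead from acetyl-CoA to cholesterol and are targets of SREBP2, 5 were called lower and none higher, and 23 changes were negative. The 200 bases before the annotated start of 3 of them are shown because CCAAT, the box bound by the factor NF-Y, lies before most of them. Sequences are from RefSeq on GRCm38.p6, on the strand of the gene, and capitals mark CCAAT in either direction and, in Hmgcs1, TCACNCCAC, a sterol regulatory element. Idi1 is at chr13:8885406-8885605, Hmgcs1 at chr13:119690151-119690350 and Msmo1, on the minus strand, at chr8:64733579-64733778.
Idi1: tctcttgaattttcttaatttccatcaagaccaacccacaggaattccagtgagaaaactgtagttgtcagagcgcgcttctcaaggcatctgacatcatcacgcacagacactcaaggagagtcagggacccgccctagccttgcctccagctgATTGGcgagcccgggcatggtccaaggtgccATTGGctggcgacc
Hmgcs1: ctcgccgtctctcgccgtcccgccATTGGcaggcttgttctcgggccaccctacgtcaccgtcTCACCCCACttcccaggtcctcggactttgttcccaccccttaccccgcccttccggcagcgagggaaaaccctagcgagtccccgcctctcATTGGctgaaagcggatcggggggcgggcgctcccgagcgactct
Msmo1: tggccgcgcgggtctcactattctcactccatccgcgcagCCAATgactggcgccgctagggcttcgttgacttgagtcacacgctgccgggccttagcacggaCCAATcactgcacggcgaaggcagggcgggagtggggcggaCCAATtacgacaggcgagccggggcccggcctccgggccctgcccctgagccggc
CCAAT on either strand was found in the 250 bases before the start of 17 of the 18 sterol genes with an entry (94.4%), against 37.5% of 27025 genes with a promoter in the table and 41.1% of tested genes. TCACNCCAC was found in 1 of the 18 and in 1.22% of all, and in its longer form, with A before it, in none of the 18 and 0.226% of all. A match is a description of the sequence and not a site of binding.

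Idi1, which makes dimethylallyl diphosphate, had 29.2, 27.1, 16.3 and 19.2 TPM in rapamycin-treated DECP, against 66.4, 39.9, 65.1 and 91.2 TPM in untreated DECP (-1.45 ± 0.33 log2, adjusted p = 0.0353). Fdps, the farnesyl diphosphate synthase, had 74.5, 30.3, 51.6 and 69.1 TPM in rapamycin-treated DECP, against 135, 96, 172 and 134 TPM in untreated DECP (-1.28 ± 0.30 log2, adjusted p = 0.0437). Msmo1, a C4-methylsterol oxidase, had 48, 37.6, 41.1 and 47.6 TPM in rapamycin-treated DECP, against 68.1, 88.1, 104 and 99 TPM in untreated DECP (-1.02 ± 0.24 log2, adjusted p = 0.0468). All rapamycin-treated libraries were below all untreated ones in these genes, and DECN libraries spanned 19.2 to 51.3 TPM of Idi1, 56.1 to 123 TPM of Fdps and 50.7 to 109 TPM of Msmo1. Hmgcs1, the cytosolic HMG-CoA synthase, had 47.1, 59.9, 44.2 and 24.3 TPM in rapamycin-treated DECP, against 85.2, 78.1, 89.2 and 84.7 TPM in untreated DECP (-0.99 ± 0.24 log2, adjusted p = 0.0494). It was named after its values were seen, for its promoter. Of the 8 fits that left out 1 library, Idi1, Fdps and Hmgcs1 were called in 1 and Msmo1 in 0. Srebf2 itself had a change of 0.03 (95% interval -0.45 to 0.52) and Srebf1 of -0.32 (-1.18 to 0.55). None of 13 genes of fatty acid synthesis passed.

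Among genes of amino acid supply, 1 was called. Slc7a5, the light chain of the leucine transporter LAT1, was 2.63-fold lower in rapamycin-treated DECP, at 6.86, 6.01, 5.78 and 5.41 TPM, against 15.2, 20.2, 15.8 and 12 TPM in untreated DECP (-1.24 ± 0.25 log2, adjusted p = 0.0214). DECN libraries held 8.66, 6.55, 9.84 and 11.2 TPM, a range that overlaps that of rapamycin-treated DECP and lies below that of untreated DECP. Slc3a2, which encodes the heavy chain of the same transporter, had a change of -0.18 (95% interval -0.51 to 0.16, adjusted p = 0.694). Slc7a5 was the only one of 25 ATF4 and amino acid response genes and of 19 amino acid transporters called. It kept the call in 3 of the 8 fits that left out 1 library. Of the other ATF4 targets, Mthfd2 averaged 39.4 ± 20 TPM in rapamycin-treated DECP and 77.4 ± 24.5 TPM in untreated DECP (SD, n = 4 each, adjusted p = 0.176), and Asns averaged 12.6 ± 6.51 and 22.7 ± 8.84 TPM in those groups (adjusted p = 0.343). None of 22 serine and folate one-carbon genes and none of 39 aminoacyl-tRNA synthetases passed, with medians of -0.36 and -0.27. The motif TGATGNAAN, a core of the element bound by ATF4, was found before 7 of 26 genes of the ATF4 list (26.9%) against 3.89% of all genes in the promoter table. It was found before 2.78% of genes called lower and 6.78% of genes called higher, against 2.5% of tested genes.

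A few nucleolar, translation and nucleotide synthesis genes were lower as well. Of 83 ribosome biogenesis factors 76 had negative changes and 4 were called lower, Gar1, Ncl, Nop58 and Rrn3. Ncl, the nucleolar protein nucleolin, had 422, 482, 356 and 445 TPM in rapamycin-treated DECP, against 829, 630.1, 680.5 and 596 TPM in untreated DECP (-0.68 ± 0.13 log2, adjusted p = 0.021). Rrn3, which recruits RNA polymerase I and is regulated by mTOR, had 39, 44.3, 38.1 and 38.1 TPM in rapamycin-treated DECP, against 61.7, 77.2, 54.3 and 81.9 TPM in untreated DECP (-0.76 ± 0.17 log2, adjusted p = 0.0386). Npm1, nucleophosmin, had 2094, 2086, 1657 and 1909 TPM in rapamycin-treated DECP and 3717, 2327, 2439 and 2453 TPM in untreated DECP, and did not pass (adjusted p = 0.0973). Groups did not overlap in these 3 genes, and none of them was called in all 8 fits that left out 1 library. DECN libraries held 280.1 to 367 TPM of Ncl, overlapping rapamycin-treated DECP, and 1154 to 1322 TPM of Npm1, below all rapamycin-treated libraries. For Npm1 the change of rapamycin-treated DECP against DECN was 0.61 (adjusted p = 0.0474) and that of untreated DECP against DECN was 1.09 (adjusted p = 0.00118). These contrasts share the DECN libraries with each other and a DECP group each with the rapamycin comparison. Eif4a1, the RNA helicase of cap-dependent initiation, had 447, 452, 406 and 438 TPM in rapamycin-treated DECP, against 686, 626, 555 and 676 TPM in untreated DECP (-0.54 ± 0.12 log2, adjusted p = 0.03). Of 46 initiation and elongation factors 4 were lower, with Eif2s1, Eif2s2 and Eif5a beside Eif4a1, and Eef1a1 was higher. Of 32 purine and pyrimidine genes 4 were lower, Dut, Nme1, Rrm1 and Rrm2. Of 13 genes of the polyamine and hypusine pathway, Amd1 and Eif5a were lower. Amd1, the S-adenosylmethionine decarboxylase, had 33, 33.1, 35.8 and 32.3 TPM in rapamycin-treated DECP, against 79.6, 52.7, 65.6 and 71 TPM in untreated DECP (adjusted p = 0.0255). Odc1, the first enzyme of the pathway, had 159.8, 128, 168 and 169.8 TPM and 343, 228, 249.5 and 200.1 TPM in those groups, which did not overlap (adjusted p = 0.0788). No member of the ribosome biogenesis, translation, nucleotide or polyamine lists was called in all 8 fits that left out 1 library. After TPM was rescaled without ribosomal protein genes, Eef1a1 was the only called gene of these lists that kept its call.

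Glycolysis genes were lower at 3 of 21 members. Ldha, lactate dehydrogenase A, had 666, 635, 589.7 and 668 TPM in rapamycin-treated DECP, against 1024, 915, 1082 and 980.1 TPM in untreated DECP (-0.64 ± 0.09 log2, adjusted p = 0.0046). Tpi1, triosephosphate isomerase, had 245, 231, 192 and 211 TPM in rapamycin-treated DECP, against 518, 357, 371 and 373 TPM in untreated DECP (-0.86 ± 0.14 log2, adjusted p = 0.0104). Both kept the call in all 8 fits that left out 1 library. The third was Pgam1 (-0.89 ± 0.18 log2, adjusted p = 0.025). Hk2, which catalyses the entry step, overlapped between groups, with 22.7, 28, 35.6 and 40.4 TPM in rapamycin-treated DECP and 71.8, 49.2, 31.4 and 62.3 TPM in untreated DECP (adjusted p = 0.56). Of 27 genes of the pentose phosphate pathway and TCA cycle, Fh1 and Mdh1 were lower.

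A few mitotic genes were lower with rapamycin. Of 52 tested genes of G2/M and mitosis, 6 were called lower, none was higher and 49 changes were negative. The bases before the start of 3 of them are shown, since CCAAT lies before 31 of the 42 with an entry (73.8%, against 37.5% of all genes in the table). Capitals mark CCAAT in either direction. Ccnb1, on the minus strand, is at chr13:100786487-100786686, Ube2c at chr2:164769729-164769928 and Bub1, on the minus strand, at chr2:127831860-127832059.
Ccnb1: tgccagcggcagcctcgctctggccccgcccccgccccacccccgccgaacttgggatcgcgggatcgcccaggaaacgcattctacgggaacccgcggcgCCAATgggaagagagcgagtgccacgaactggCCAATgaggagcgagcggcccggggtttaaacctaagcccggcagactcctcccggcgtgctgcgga
Ube2c: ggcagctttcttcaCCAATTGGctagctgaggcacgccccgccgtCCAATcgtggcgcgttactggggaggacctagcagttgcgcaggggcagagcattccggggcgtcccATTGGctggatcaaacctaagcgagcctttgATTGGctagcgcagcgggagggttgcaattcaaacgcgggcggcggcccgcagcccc
Bub1: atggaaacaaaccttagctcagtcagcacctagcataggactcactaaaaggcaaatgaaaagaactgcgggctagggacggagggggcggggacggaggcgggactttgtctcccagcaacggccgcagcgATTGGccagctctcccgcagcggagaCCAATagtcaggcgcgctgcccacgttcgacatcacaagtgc
Among all genes called lower with an entry, 67 of 144 held CCAAT (46.5%), and among those called higher 18 of 59 did (30.5%), against 41.1% of tested genes.

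Ccnb1, cyclin B1, had 38.7, 42.7, 84.1 and 48.5 TPM in rapamycin-treated DECP, against 253, 137, 136 and 95.2 TPM in untreated DECP (-1.50 ± 0.33 log2, adjusted p = 0.0316). Ube2c, the ubiquitin-conjugating enzyme of the anaphase-promoting complex, had 44.6, 36.6, 77.4 and 61.9 TPM in rapamycin-treated DECP, against 226, 128, 168 and 106 TPM in untreated DECP (-1.49 ± 0.30 log2, adjusted p = 0.0249). Bub1, a kinase of the spindle checkpoint, had 16.4, 11.1, 19.3 and 14 TPM in rapamycin-treated DECP, against 44.2, 38.9, 30.7 and 47.6 TPM in untreated DECP (-1.36 ± 0.28 log2, adjusted p = 0.0249). The groups did not overlap in any of the 3, and the spread among untreated libraries was wide, with 95.2 to 253 TPM of Ccnb1. DECN libraries held 31.2 to 69.6 TPM of Ccnb1 and 12.1 to 25.5 TPM of Bub1. The remaining 3 lower members were Ccnb2, Cdca8 and Cenpa, and none of the 6 was called in all 8 fits that left out 1 library. Of 44 DNA replication genes Pcna, Rrm1 and Rrm2 were lower, and Rrm2, the regulated subunit of ribonucleotide reductase, had 277, 162, 228 and 230.4 TPM in rapamycin-treated DECP, against 388, 360.4, 359.5 and 367 TPM in untreated DECP (-0.74 ± 0.16 log2, adjusted p = 0.0296). None of 23 G1 cyclins, their kinases and inhibitors passed. Ccnd2, the cyclin D2 gene, averaged 21.2 ± 6.71 TPM in rapamycin-treated DECP and 14.4 ± 4.69 TPM in untreated DECP (SD, n = 4 each, adjusted p = 0.678). Of 19 dark zone genes 3 were lower, and all 3, Ccnb1, Ccnb2 and Cenpa, are also mitotic genes.

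**Figure D3:**
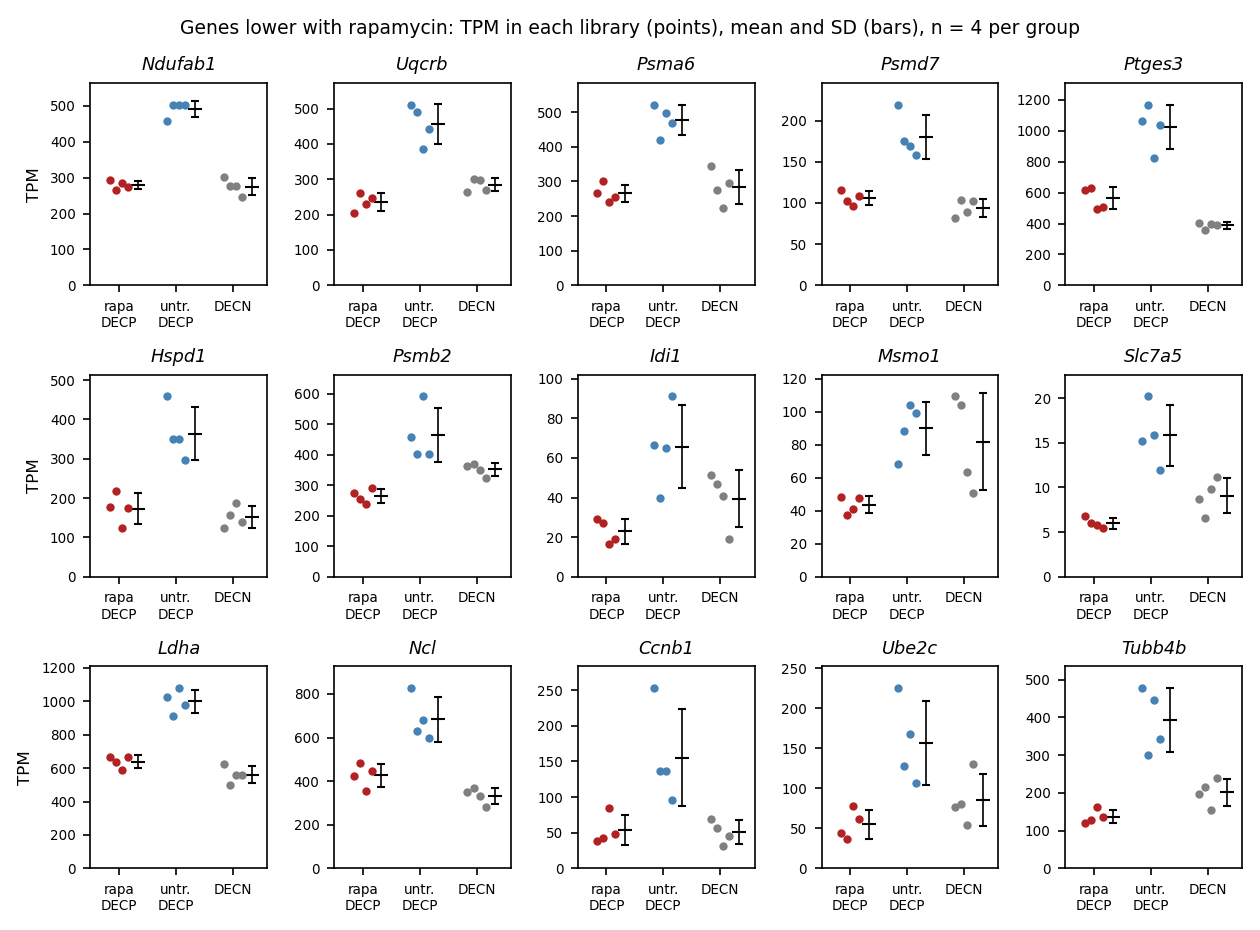
TPM of 15 genes called lower in rapamycin-treated DECP (rapa DECP, red), untreated DECP (untr. DECP, blue) and DECN (grey). Points are libraries and bars the mean and SD of 4. In each panel the 4 rapamycin-treated libraries lie below the 4 untreated libraries, and grey points show where DECN lies relative to both.

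Some genes of the cytosolic ribosome were higher. Of 79 tested ribosomal protein genes 16 were called higher with rapamycin and 73 had positive changes, and their summed share of TPM was 22.7% to 24.8% in rapamycin-treated DECP, against 18.0% to 21.6% in untreated DECP and 17.7% to 20.2% in DECN. Messenger RNAs of ribosomal proteins begin with a C and a run of pyrimidines, the feature through which mTORC1 controls their translation. The 25 bases around the annotated start are shown for 4 called genes whose entry begins that way, with the pyrimidines from the start in capitals. They are Rps6 on the minus strand at chr4:86857348-86857372, Rps18 on the minus strand at chr17:33955646-33955670, Rps10 on the minus strand at chr17:27635225-27635249 and Fau at chr19:6057942-6057966.
Rps6: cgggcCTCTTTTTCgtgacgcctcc
Rps18: ccgctCTCTCTTCCacaggaggcct
Rps10: cgcccCTTCCTTTCCagcctccgcc
Fau: cacttCTTCCTCTTTCTTgactcca
A C followed by at least 4 pyrimidines stood at the annotated start of 14 of 60 ribosomal protein genes with an entry (23.3%), against 3.01% of all genes in the table, and annotated starts can lie some bases from the used one. The entries of Rpl13, Rpl23, Rpl37, Rpl4, Rps15 and Rps3, which were also called higher, did not begin that way.

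Rps18 had 6321, 5797, 6314 and 6389 TPM in rapamycin-treated DECP, against 4989, 4064, 4803 and 4253 TPM in untreated DECP (0.46 ± 0.08 log2, adjusted p = 0.0129). Rps6, whose protein is the classical substrate of the S6 kinases, had 4930, 4327, 4982 and 4701 TPM in rapamycin-treated DECP, against 3829, 3461, 3703 and 3055 TPM in untreated DECP (0.43 ± 0.08 log2, adjusted p = 0.0196). The groups did not overlap in these genes, and DECN held 3607 to 4308 TPM of Rps18 and 3138 to 3640 TPM of Rps6. Eef1a1, the elongation factor that is counted with the ribosomal protein genes among messages with such a start, had 9879, 9183, 10320 and 9954 TPM in rapamycin-treated DECP, against 8354, 6804, 7617 and 7924 TPM in untreated DECP (0.36 ± 0.07 log2, adjusted p = 0.0255). Rps27l, a p53-induced paralogue of Rps27, was the exception, with 263, 307, 273 and 405 TPM in rapamycin-treated DECP, against 593, 547, 661 and 586 TPM in untreated DECP (-0.95 ± 0.13 log2, adjusted p = 0.0034). Rps18, Rps3 and Rps27l were among the 4 genes of the list called in all 8 fits that left out 1 library. With quantile scaling 4 ribosomal protein genes were higher, and with each library centred on its median 2 were. Reads of ribosomal protein genes are shared with processed pseudogenes and were divided by an estimate, so single values are uncertain. TPM is a share, so values of all genes depend on the ribosomal share. After ribosomal protein genes were taken out and TPM rescaled, 60 genes were higher and 68 lower, in place of 84 and 195, and the median log2 change of all genes was 0.08 in place of 0.02. For Proteasome subunits the median was then -0.51, in place of -0.59, and the cause of the lost calls was not tested.

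Several genes of MHC class II antigen presentation were higher with rapamycin. Of 17 tested genes 7 were called higher and none lower, where 0.657% of all genes were higher. The sequences before H2-Eb1 and H2-Aa are shown because a CCAAT box forms part of the conserved control region of class II promoters. Capitals mark every CCAAT in either direction. H2-Eb1 has 2 such matches, and which of them belongs to that region was not tested. H2-Eb1 is at chr17:34305667-34305866 and H2-Aa, on the minus strand, at chr17:34287824-34288023.
H2-Eb1: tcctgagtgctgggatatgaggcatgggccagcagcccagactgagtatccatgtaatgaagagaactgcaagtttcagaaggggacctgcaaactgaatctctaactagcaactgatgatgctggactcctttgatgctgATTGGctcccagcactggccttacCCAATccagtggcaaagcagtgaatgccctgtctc
H2-Aa: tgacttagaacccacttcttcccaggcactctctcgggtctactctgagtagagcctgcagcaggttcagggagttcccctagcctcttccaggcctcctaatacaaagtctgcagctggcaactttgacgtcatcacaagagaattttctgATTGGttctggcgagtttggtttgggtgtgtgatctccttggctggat
CCAAT was found before 10 of the 12 class II genes with an entry (83.3%), against 37.5% of all genes in the table.

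H2-Eb1, a class II beta chain, had 2923, 2837, 3171 and 3028 TPM in rapamycin-treated DECP, against 1794, 1902, 2322 and 2009 TPM in untreated DECP (0.58 ± 0.08 log2, adjusted p = 0.00423). H2-Aa, a class II alpha chain, had 5089, 4855, 5130 and 4640 TPM in rapamycin-treated DECP, against 2911, 3316, 3752 and 3823 TPM in untreated DECP (0.52 ± 0.09 log2, adjusted p = 0.00942). H2-Ob, a chain of the B cell modulator of peptide loading H2-O, had 422, 422, 411 and 369.5 TPM in rapamycin-treated DECP, against 217, 229.7, 188 and 237 TPM in untreated DECP (0.90 ± 0.11 log2, adjusted p = 0.00285). Groups did not overlap in these genes, which were called in all 8 fits that left out 1 library. The other 4 were H2-Ab1, H2-DMa, H2-Oa and Cd74. Cd74, the invariant chain, had 9149, 6430, 10060 and 8989 TPM in rapamycin-treated DECP, against 4400, 5186, 6460 and 6669 TPM in untreated DECP (0.61 ± 0.15 log2, adjusted p = 0.0494), and replicate 2 of the treated group was below the 2 highest untreated libraries. DECN libraries overlapped rapamycin-treated DECP, with 3119 to 3487 TPM of H2-Eb1 and 324 to 425 TPM of H2-Ob. For H2-Eb1 the log2 change was -0.14 in rapamycin-treated DECP against DECN (adjusted p = 0.515) and -0.72 in untreated DECP against DECN (adjusted p = 0.000949). Over all genes, 0.774% were called higher and 0.532% lower in rapamycin-treated DECP against DECN, and 2.72% higher and 1.32% lower in untreated DECP against DECN.

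Receptor, light zone and CD40-dependent genes rose at a few members. Of 28 B cell receptor genes, Cd72, Cd79a and Cd79b were higher. Cd72, an inhibitory co-receptor, had 211, 192, 212 and 247 TPM in rapamycin-treated DECP, against 116, 75.3, 102 and 125 TPM in untreated DECP (1.06 ± 0.17 log2, adjusted p = 0.00874). Cd79a, a signalling chain of the receptor, had 616, 413, 644 and 614 TPM in rapamycin-treated DECP, against 252, 368, 344 and 404 TPM in untreated DECP (0.74 ± 0.17 log2, adjusted p = 0.0378). Of 21 light zone genes 20 had positive changes and Cd83, Fcer2a and Nfkbie were higher. Fcer2a, the IgE receptor CD23, had 126, 67.1, 63.3 and 104 TPM in rapamycin-treated DECP, against 39.9, 43.1, 34.4 and 50.8 TPM in untreated DECP (1.04 ± 0.22 log2, adjusted p = 0.0309). Nfkbie, the inhibitor IkB-epsilon and itself a target of NF-kB, had 53.1, 56.4, 34 and 54.7 TPM in rapamycin-treated DECP, against 11.9, 26, 19.2 and 22.1 TPM in untreated DECP (1.30 ± 0.30 log2, adjusted p = 0.0415). Cd83 had 1155, 1215, 947 and 826 TPM in rapamycin-treated DECP and 566, 788, 625 and 688 TPM in untreated DECP, but CD83 was one of the proteins by which the cells were sorted. Of 35 CD40 and NF-kB targets, Il4i1 was higher beside Cd83 and Nfkbie. Il4i1, a secreted amino acid oxidase induced by interleukin 4 and CD40, had 318, 354, 190 and 392 TPM in rapamycin-treated DECP, against 124, 129, 139 and 137 TPM in untreated DECP (1.19 ± 0.23 log2, adjusted p = 0.0212). Cd72 was called in all 8 fits that left out 1 library, and Cd79a, Cd79b, Cd83, Fcer2a, Nfkbie and Il4i1 in 2 to 4 of them. Among 27 germinal centre factors Ebf1, a transcription factor of B cell identity, was higher, at 134 ± 18.4 TPM in rapamycin-treated DECP and 79.5 ± 8.41 TPM in untreated DECP (SD, n = 4 each, adjusted p = 0.027).

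**Figure D4:**
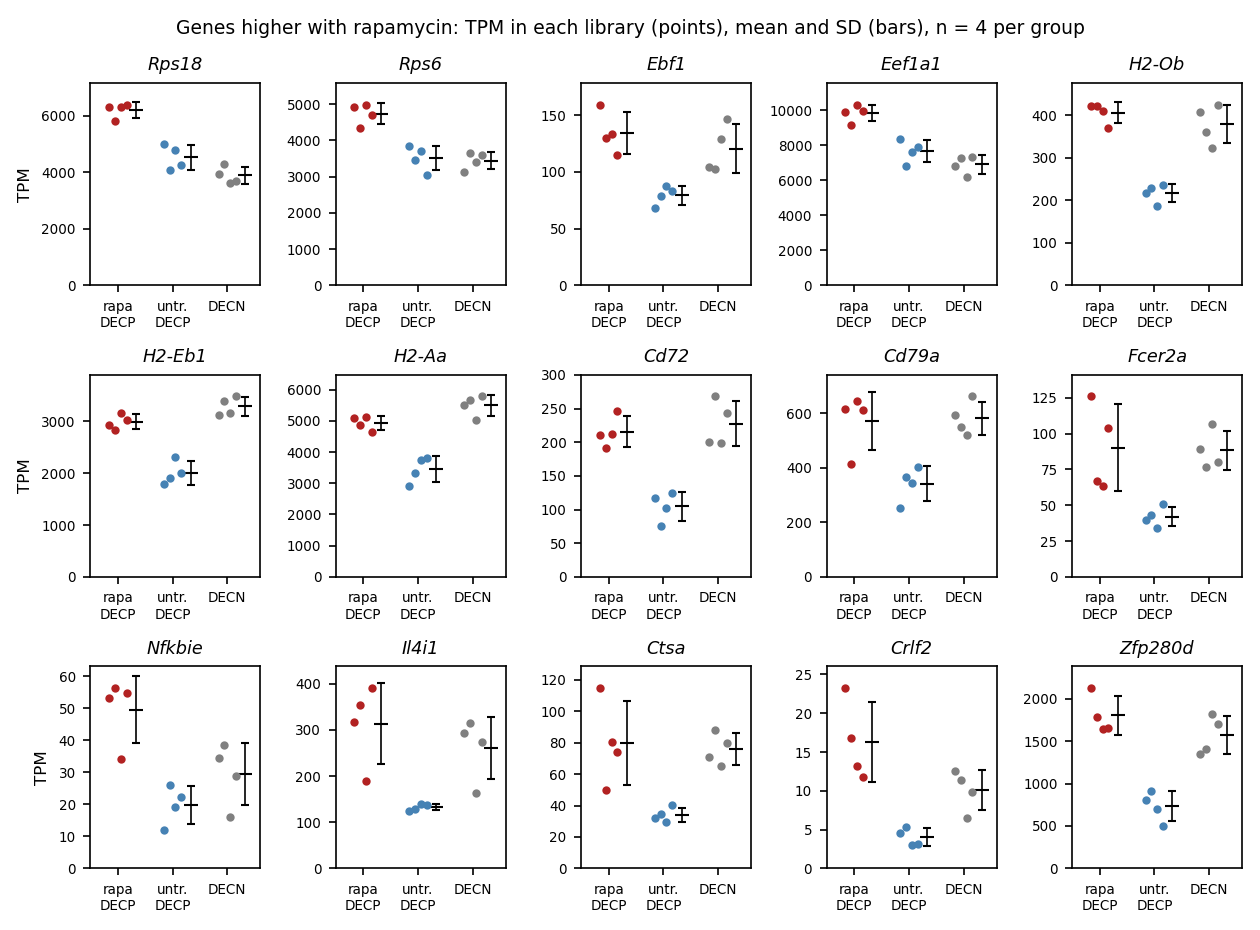
TPM of 15 genes called higher in rapamycin-treated DECP (rapa DECP, red), untreated DECP (untr. DECP, blue) and DECN (grey). Points are libraries and bars the mean and SD of 4. In each panel the 4 rapamycin-treated libraries lie above the 4 untreated libraries, and grey points show where DECN lies relative to both.

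The genes of mTORC1 itself and of its best known regulators did not pass the test. Of 18 tested genes for the complex and its inputs 0 were called, and of 12 brakes on mTORC1 0 were called. Of 14 substrates and effectors Rps6 was the one called. Mtor, the kinase, had 3.96, 2.87, 8.86 and 5.76 TPM in rapamycin-treated DECP and 18.3, 6.26, 4.61 and 2.98 TPM in untreated DECP (95% interval of the log2 change -1.38 to 0.73). Rptor, which encodes the defining subunit raptor, had 4.08, 3.82, 1.55 and 4.7 TPM in rapamycin-treated DECP and 5.86, 5.83, 1.62 and 3.25 TPM in untreated DECP (-1.10 to 0.83). These levels are low and the intervals wide, and the interval of Mtor includes a 2-fold fall as well as no change. Rps6kb1, an S6 kinase, had 108, 109.6, 99.5 and 98.7 TPM in rapamycin-treated DECP and 68.2, 117, 123 and 95.6 TPM in untreated DECP, with an interval of -0.30 to 0.45. Eif4ebp1 had an interval of -0.40 to 0.67. Fkbp1a, which encodes the rapamycin-binding protein FKBP12, had 113, 143, 128 and 143 TPM in rapamycin-treated DECP and 196, 133, 178 and 182 TPM in untreated DECP (adjusted p = 0.301). Myc, a transcription factor of cell growth induced in selected B cells, had 69.9, 67.8, 23.9 and 43.6 TPM in rapamycin-treated DECP and 38.3, 36.1, 36 and 27.6 TPM in untreated DECP, groups that overlap (adjusted p = 0.658), and 7.59, 14.5, 14.4 and 25.3 TPM in DECN. For Myc the log2 change was 1.66 in rapamycin-treated DECP against DECN (adjusted p = 0.0452) and 1.21 in untreated DECP against DECN (adjusted p = 0.0885).

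Genes that rise when mTORC1 is off were mostly not called. Of 40 lysosomal genes, many of them targets of TFEB, 1 was higher, Ctsa, the cathepsin A gene, with 115, 49.9, 80.2 and 74.1 TPM in rapamycin-treated DECP, against 31.9, 34.6, 29.6 and 40.3 TPM in untreated DECP (1.15 ± 0.22 log2, adjusted p = 0.021). The motif CACGTG, part of the element bound by TFEB and by MYC, was found before 14 of 33 genes of the lysosome list (42.4%), against 6.86% of all genes in the table. It was found before 5.08% of genes called higher and 13.2% of genes called lower, against 9.83% of tested genes. None of 34 autophagy genes and none of 21 FOXO targets and quiescence genes passed, and none of 16 genes of PI3K, AKT and mTORC2 did. Klf2, a FOXO target of quiescent lymphocytes, had 3.36, 3.64, 11.4 and 6.11 TPM in rapamycin-treated DECP and 1.38, 1.72, 3.1 and 3.4 TPM in untreated DECP (adjusted p = 0.246). None of 20 immediate early genes was called, with a median change of 0.52, and none of 27 interferon-induced genes, with a median of 0.34.

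**Figure D5:**
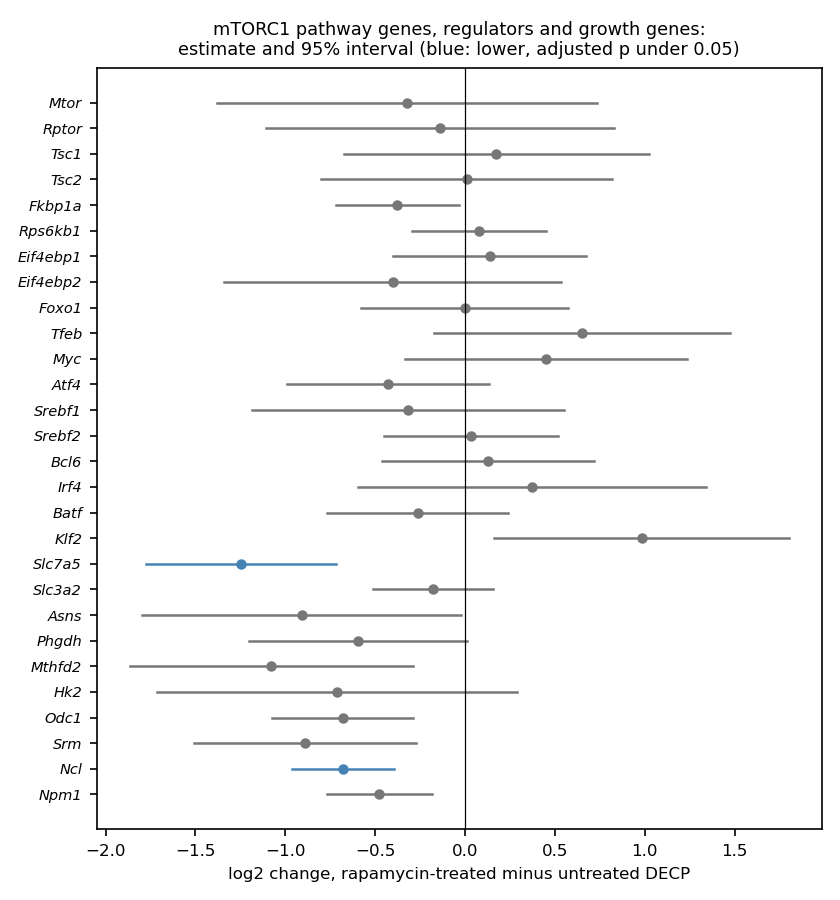
Log2 change, rapamycin-treated minus untreated DECP, of 28 genes of the mTORC1 pathway, transcription factors and growth genes, with 95% intervals from limma. Slc7a5 and Ncl, in blue, passed an adjusted p of 0.05. The intervals of Mtor, Tsc1, Tsc2 and Rptor each span 0 widely.

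Several of the largest changes were in genes not yet described. Tubb4b, a beta tubulin, had 121, 127, 161 and 137 TPM in rapamycin-treated DECP, against 479, 299, 447 and 343 TPM in untreated DECP (-1.50 ± 0.17 log2, adjusted p = 0.0021). Its neighbour Fam166a, on the plus strand of chromosome 2 from 25218745 to 25222280 (GRCm38), overlaps the end of Tubb4b on the minus strand from 25222160 to 25224702. The library kit does not mark strand, so the fall of Fam166a (-1.64 ± 0.22 log2) cannot be told apart from that of Tubb4b. Cks2, a partner of cyclin-dependent kinases, had 122, 245, 131 and 162 TPM in rapamycin-treated DECP, against 383, 463, 325 and 416 TPM in untreated DECP (-1.30 ± 0.21 log2, adjusted p = 0.00942). Ppa1, the cytosolic inorganic pyrophosphatase, had 42.3, 39, 48.8 and 61.2 TPM in rapamycin-treated DECP, against 178, 106, 110.5 and 84.2 TPM in untreated DECP, and 22.3 to 42.6 TPM in DECN (adjusted p = 0.0213). Zfp280d, a zinc finger gene, had 2130, 1780, 1642 and 1659 TPM in rapamycin-treated DECP, against 809, 914, 705 and 504 TPM in untreated DECP (1.32 ± 0.17 log2, adjusted p = 0.00247). Its mean normalized count with rapamycin was 3077 in the authors' deposited table, against 13144 for Cd83, a gene with lower TPM. TPM divides by transcript length, and whether a short annotated transcript carries the TPM of Zfp280d was not tested. Crlf2, the receptor chain for thymic stromal lymphopoietin, was 4.04-fold higher, with 23.3, 16.8, 13.2 and 11.8 TPM in rapamycin-treated DECP, against 4.58, 5.34, 3.06 and 3.13 TPM in untreated DECP (adjusted p = 0.0104). Zyg11b, an adaptor of a ubiquitin ligase, had 36.3, 33.3, 21.6 and 21.6 TPM in rapamycin-treated DECP, against 2.75, 8.32, 11.2 and 5.8 TPM in untreated DECP (adjusted p = 0.015), and 7.56 to 11.8 TPM in DECN, of which all 4 libraries were below the treated ones. Ephx1, the microsomal epoxide hydrolase, had 29.4, 9.73, 14.3 and 16.3 TPM in rapamycin-treated DECP, against 0.101, 5.74, 3.89 and 4.97 TPM in untreated DECP, and rested on all 8 libraries, since it was called in none of the fits that left one out (adjusted p = 0.0497 with all). The other named rises were Cerkl, Zkscan5, Ms4a4c, Ino80b, Xrn1 and Ica1l, and the other named falls were Fbxo8 and Coa6.

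Families that stood out among the called genes were counted after their values were seen. Of 24 Sm and LSm proteins of the spliceosome 9 were lower, with a median of -0.60, and of 17 thioredoxin and peroxiredoxin genes 4 were lower, Glrx3, Prdx1, Sod1 and Txn1. Of 9 tubulin and stathmin genes Tuba1b, Tubb4b and Tubb5 were lower.

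A few genes known from other cells were called. Apoe, an apolipoprotein best known from macrophages and the liver, had 1178, 597, 1063 and 824 TPM in rapamycin-treated DECP, against 528, 406, 614 and 519 TPM in untreated DECP and 1014, 1047, 1123 and 1114 TPM in DECN (0.79 ± 0.18 log2, adjusted p = 0.0415). Cd68, another macrophage marker, was at 1.23, 20.8, 14.4 and 8.02 TPM in rapamycin-treated DECP, against 5.14, 4.24, 7.11 and 8.28 TPM in untreated DECP. Cd68 was not called (limma, adjusted p = 0.883). Lyz2, also a macrophage marker, had 8.88, 0, 10.2 and 0.0143 TPM in rapamycin-treated DECP and 0.142, 0, 0 and 0.389 TPM in untreated DECP. Lyz2 did not pass the filter on low values and was not tested. Of the same markers, Csf1r was at 0.597 TPM or less in all 8 DECP libraries and Itgax at 0.162 TPM or less. The part of such cells in the result was not tested. Lck, a kinase best known from T cells, had 132, 114, 126 and 115 TPM in rapamycin-treated DECP, against 97.8, 58.4, 72.9 and 71.7 TPM in untreated DECP (0.71 ± 0.16 log2, adjusted p = 0.0415). Jchain, the joining chain of secreted IgM and IgA, had 601, 386, 705 and 558 TPM in rapamycin-treated DECP, against 751, 940.1, 1096 and 1011 TPM in untreated DECP (-0.77 ± 0.17 log2, adjusted p = 0.0375). Of the other plasma cell markers, Prdm1 and Sdc1 were at 1.01 TPM or less in all 8 DECP libraries, and Xbp1, a factor of the secretory program, was at 62.7 to 100 TPM in rapamycin-treated DECP, against 62.4 to 80.2 TPM in untreated DECP. Of the 8 fits that left out 1 library, Apoe and Lck were called in 1 and Jchain in 2. Apoe, Lck and Jchain were not called after TPM was rescaled without ribosomal protein genes.

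The same comparison in the authors' deposited table gave more calls. Among 9022 genes with an adjusted p in that table, 188 were higher in rapamycin-treated DECP (2.08%) and 496 lower (5.5%) at a threshold of 0.05. Of 267 genes called here that have an adjusted p in the authors' deposited table, 256 passed there in the same direction. Lower in rapamycin-treated DECP in the authors' deposited table were 23 of 36 proteasome genes, 34 of 76 genes of oxidative phosphorylation, 17 of 27 chaperones, 14 of 52 mitotic genes and 9 of 24 sterol genes. The same table had 10 of 79 ribosomal protein genes and 9 of 17 MHC class II genes higher. Its fold changes are given as untreated over rapamycin-treated, so their sign is the opposite of that used above.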

How the data were processed

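RNA from sorted light zone germinal centre B cells was reverse transcribed and made into libraries with Nextera XT, per the labels' protocols, and quantified with kallisto 0.43.0 on GRCm38, per the submitters' processing notes. The authors deposited, per the file headers, a score per gene and library that is TPM plus 1, over 30452 genes and 12 libraries at 24 h, and 1 was subtracted. The authors' deposited table of the same comparison holds, per the file headers, the mean normalized count of each group as a signal, a log2 fold change and its error, and raw and adjusted p-value columns. No source used here names the tool behind it.

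Genes with TPM of at least 1 in at least 4 of 12 libraries (12783 genes) were tested with limma 3.58.1 (R 4.3.3, empirical Bayes with an intensity trend, two-sided) on log2(TPM + 1), with all 12 libraries in one fit, Benjamini-Hochberg adjustment over all genes and a threshold of 0.05. Changes of low genes come out too small on this scale. Depth is unknown, so no counting interval is given. Of symbols listed more than once (35), lists count 1 entry. Lists held 50 gene sets, with 3 families added after values were seen. Genes named were 38 fixed genes, the 12 largest rises and falls with a mean TPM of at least 5 and groups apart, and, from each list, the 4 with the lowest p, of which some are not reported here. The members, lists and motifs were chosen with earlier results of these data known. Promoters (27025 symbols, of which 203 of the 278 called) are from RefSeq. The script was tested on simulated data. Figures used Python 3.11.15 with matplotlib 3.10.9.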

Additional observations from a re-analysis of the deposited data

Results flagged for a closer look

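Over the 64 genes whose values by library are given, in 3 groups of 4 libraries each, 7 of 192 groups had 1 library farther from the others than 95% of groups of 4 would by chance. Chance gives about 1 in 20. In rapamycin-treated DECP, replicate 2 was apart in 3 genes: Rrn3 at 44.27 TPM against 38.11 to 38.96 in the others, Rps18 at 5797 TPM against 6314 to 6389, and Cd79a at 412.7 TPM against 614.3 to 644.3. Replicate 3 of that group was apart in Nfkbie, at 33.99 TPM against 53.1 to 56.38 in the others. In untreated DECP, replicate 1 was apart in 3 genes: Ndufab1 at 457.5 TPM against 501.1 to 503.3, Tpi1 at 517.8 TPM against 356.7 to 372.9, and Npm1 at 3717 TPM against 2327 to 2453.

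In each of these genes that was called, Ndufab1, Tpi1 and Rps18 kept the call without any 1 library, and Rrn3, Cd79a and Nfkbie kept it in 1, 2 and 2 of 8 such fits.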

How the results depend on the processing

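The 279 calls (84 higher, 195 lower) became 164 (47 and 117) with no filter on low values, 130 (76 and 54) with quantile scaling, 128 (60 and 68) after rescaling without ribosomal protein genes, 285 (53 and 232) with each library centred on its median, 140 (39 and 101) with only the 8 libraries compared, 9 (1 and 8) with a minimum 1.2-fold change and 0 (0 and 0) with a minimum 1.5-fold change, an alternative chosen after seeing the data, at which 190 genes had an unadjusted p under 0.05. Without an intensity trend the counts were 0 (0 and 0), within second index A 0 (0 and 0), with 955 at an unadjusted p under 0.05, and within index B 2 (2 and 0). The share of calls that were lower was 69.9%, against 41.5% with quantile scaling, 53.1% without ribosomal protein genes and 81.4% with median centring. Leaving out 1 library gave 107 to 211 calls, 27 to 69 higher and 74 to 142 lower. Counting a gene that is not tested under an alternative as lost, 262 of the 279 had the same direction without ribosomal protein genes, 271 with a filter at TPM 5, and 274 to 279 under each other alternative. The other alternatives, with pseudocounts of 0.1 and 5, that filter, array weights, a robust fit, the second index as a term and scaling without immunoglobulin and mitochondrially encoded genes, gave 266 to 359 calls.

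The replicate block gave 1 call (1 higher and 0 lower). The pairing check found correlations of same-numbered libraries of 0.00092, 0.092, 0.039 and -0.057, and 2 of 4 rapamycin-treated libraries correlated best with their own number. No other matching of libraries was tried as a block, so this check cannot say whether libraries share a host or batch.

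Among the named genes, 13 differed between rapamycin-treated DECP and DECN, against 4 with no filter, 8 with median centring, 2 without a trend, 1 at 1.2-fold, 0 at 1.5-fold and 0 within index A or B, and 4 to 14 with 1 library left out. Between untreated DECP and DECN 76 did, against 44 without a trend, 28 at 1.2-fold, 0 at 1.5-fold and 0 within index A or B. Named genes were chosen in part by their change between the 2 DECP groups, whose libraries both contrasts reuse. So 13 and 76 cannot be set against each other as a result. Over all genes, 0.774% were higher and 0.532% lower in rapamycin-treated DECP against DECN. The shares were 2.72% and 1.32% in untreated DECP against DECN. The Ly75 ratio of rapamycin-treated DECP to DECN was 2.1 to 2.831 and that of untreated DECP to DECN 2.439 to 3.15 with 1 library left out, where 4 against 3 libraries cannot always pass. The cause of these differences was not tested. Unknown depth limits low genes such as Mtor.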

Other observations

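Some called genes lay outside the rule for naming. Tmed6, a member of the p24 family of transport proteins, had the lowest change of all called genes (-2.70 log2), with a mean of 2.81 TPM in rapamycin-treated DECP and 15.5 TPM in untreated DECP, and its groups overlapped. Pter averaged 0.973 TPM in rapamycin-treated DECP and 5.3 TPM in untreated DECP. The processed pseudogene Gm12396 had the highest change, with 27.1 TPM in rapamycin-treated DECP and 0.258 TPM in untreated DECP. Such pseudogenes share sequence with other transcripts, so their values are uncertain. These genes were chosen after their values were seen.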
